A study of Cucumis sativus with 4 samples.

Results

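Csa1G020890 is 1 of the 17770 gene identifiers in a table of axillary bud transcriptomes of cucumber, Cucumis sativus. It was taken here as the identifier of CsBRC1, the gene targeted by RNA interference in the study. Neither the deposited table nor the RefSeq cucumber gene list used here pairs the identifier with a name, so the pairing was not checked by sequence. The gene is therefore called by its identifier.

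CsBRC1 belongs to the BRANCHED1 genes, plant-specific TCP transcription factors related to TEOSINTE BRANCHED1 of maize. In Arabidopsis and other flowering plants BRANCHED1 genes are transcribed in axillary buds and hold back their outgrowth into branches. Hormones, sugars and shade act on branching in part through these genes. The title of the series places CsBRC1 upstream of auxin efflux carriers, membrane proteins that carry auxin out of cells. The level of the targeted gene in each library bears on the labels of a silencing experiment where its identifier is known, which was not checked here.

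Lateral buds from the same node of plants aged 2 months gave 4 libraries. The 2 control libraries carry the genotype label wild type, and the other 2 carry the label CsBRC1-RNAi, from plants transformed with a silencing construct that holds 585 bp of CsBRC1 coding sequence. The CsBRC1-RNAi libraries are also called silenced here, after their label alone. The transformed inbred line was R1461, and an empty PFGC-1008 vector is also described as a transformation control, but no library bears that label. All plants were started in a chamber with 16 h days at 25°C and 8 h nights at 18°C and then moved to a greenhouse. The promoter driving the construct, the number of transgenic lines and any pooling of plants are not given in the labels. Replicates may thus be technical, and p-values cover no more than their spread.

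The table holds 1 normalised value per gene and library, which is a read count divided by a scaled library size. Dividing by each column's smallest value above 0 gave back whole reads, between 26912976 and 32385236 per library. A single read was worth between 0.028 and 0.0392. Csa1G020890 was thus read well above the limit set by a count of 0, at most 0.118 in any library.

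In buds of CsBRC1-RNAi plants, Csa1G020890 had a mean at 21.8% of the wild-type mean, and it was still detected in both libraries. The normalised value was 13.9 in wild type 1 and 28.1 in wild type 2. It was 4.59 in CsBRC1-RNAi 1 and 4.53 in CsBRC1-RNAi 2. Both silenced libraries were below both wild-type libraries and nearly equal to each other, while the wild-type libraries lay far apart. The group means were 21 ± 10 in wild type and 4.56 ± 0.0399 in CsBRC1-RNAi (SD, n = 2 each), a 4.6-fold difference between the means.

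These values rest on 496 and 792 wild-type reads and on 117 and 138 reads from silenced buds. Exact 95% Poisson intervals ran from 12.7 to 15.1 in wild type 1 and from 26.1 to 30.1 in wild type 2. In CsBRC1-RNAi they ran from 3.8 to 5.5 and from 3.81 to 5.36. The intervals of both silenced libraries overlapped, and those of both wild-type libraries did not, so the gap between the wild-type libraries was larger than counting error. With the reads of each genotype summed, the level left was 22.7% of wild type, with an exact 95% interval from 19.7% to 25.9%. Intervals here cover counting error only and hold nothing of the spread between libraries.

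**Figure D1:**
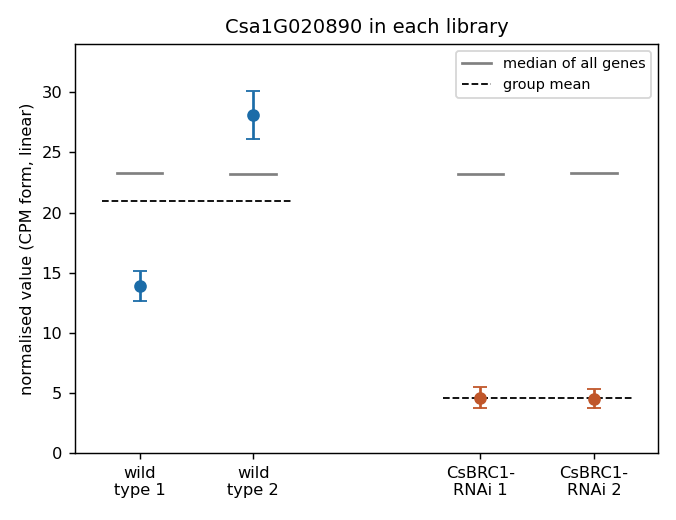
Normalised value of Csa1G020890 (linear axis from 0) in each library. Points are libraries with exact 95% Poisson intervals, dashed lines are group means and short grey bars mark the median gene of that library. The CsBRC1-RNAi libraries sit at 4.59 and 4.53, below the wild-type libraries at 13.9 and 28.1.

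How much of the message was left depended on which wild-type library was taken as the reference. Against wild type 1, CsBRC1-RNAi 1 and 2 held 33.1% and 32.7% of the level. Against wild type 2 they held 16.4% and 16.2%. The choice between the wild-type libraries thus moved the figure far more than the choice between the silenced ones. The smallest of the 4 pairwise differences was 3.02-fold and the largest 6.19-fold.

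Within each library Csa1G020890 went from the middle of the list of genes to its lower part. By normalised value it ranked 11303 of 17770 genes in wild type 1 and 7893 in wild type 2, with 36.3% and 55.5% of genes below it. In CsBRC1-RNAi 1 and 2 it ranked 14675 and 15005, with 17.3% and 15.5% of genes below it. Wild type 2 was the only library of the 4 in which the gene stood above the library's median gene, at 1.21 times that gene's value. In wild type 1 it stood at 0.596 times the median, and in the silenced libraries at 0.198 and 0.195 times.

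The mean rank was 5242 places lower in CsBRC1-RNAi than in wild type, and 0.97% of the genes tested moved down by at least as many places. Genes that stood near the foot of the wild-type lists could not move down so far, yet count among those tested. Among the 2577 genes whose identifiers carry the digit of chromosome 1, the gene held places 1622 and 1118 in the wild-type libraries and 2132 and 2184 in the silenced ones. The values are not per length, so a rank orders genes by reads and not by transcripts. The fold change of 1 gene between libraries is not touched by its length. The number of places it moves also depends on the read level it starts from, and so on its length. All 17770 genes of the table reached 1 CPM, over the recovered reads, in at least 2 libraries, so ranks are among such genes only.

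**Figure D2:**
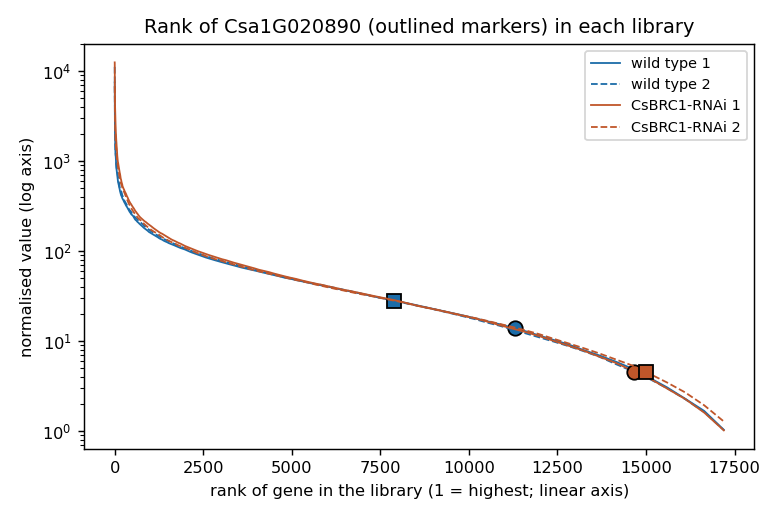
Normalised value (log axis) against rank (linear axis, 1 is the highest gene) in each library, with Csa1G020890 as an outlined marker, a circle for replicate 1 and a square for replicate 2 of each genotype. The wild-type markers lie at ranks 11303 and 7893, and the CsBRC1-RNAi markers at 14675 and 15005.

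The difference was large but narrowly missed the threshold of the test across all genes. On the log2(value + 1) scale, which understates the change of low genes, the wild-type libraries stood at 3.89 and 4.86 and the silenced libraries at 2.48 and 2.47. The log2 fold change was -1.90 ± 0.36 (SE), with a 95% interval from -2.81 to -0.99. As a fold of value + 1, and not of the value itself, this is 3.74-fold lower, with an interval from 1.99-fold to 7.03-fold. Its unadjusted p was 0.00263 and its adjusted p 0.0557 by limma with Benjamini-Hochberg adjustment, against a threshold of 0.05. In the same test 640 of 17726 genes, or 3.61%, were past the threshold, and 250 genes, or 1.41%, were past it and lower in CsBRC1-RNAi. Ordered by p-value, 835 genes came before Csa1G020890.

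Of the other tools, edgeR left the gene on the same side of the threshold and DESeq2 did not. The quasi-likelihood test of edgeR put the log2 fold change at -2.20 with an adjusted p of 0.0576, and called 2.38% of genes. DESeq2 gave -2.20 and an adjusted p of 2.96e-05, in a test that called 22.1% of genes. An exact two-sided permutation test of its values gave p = 0.333, the smallest that this test can give with 2 against 2 libraries, so it cannot reach 0.05. Its groups did not overlap, with wild type higher, and the same was true of 33.7% of the genes tested.

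The call also turned on wild type 1. Without that library the log2 fold change was -2.39 and the adjusted p 0.026 by limma, in a fit that called 19.9% of genes. Without wild type 2 the values were -1.42 and 0.102, and 32.9% of the wild-type level was left. Without CsBRC1-RNAi 1 or 2 the log2 fold change was -1.91 or -1.89 and the adjusted p 0.214 or 0.172. Each of these fits leaves a lone library in 1 genotype, assumed to vary like the other genotype.

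**Figure D3:**
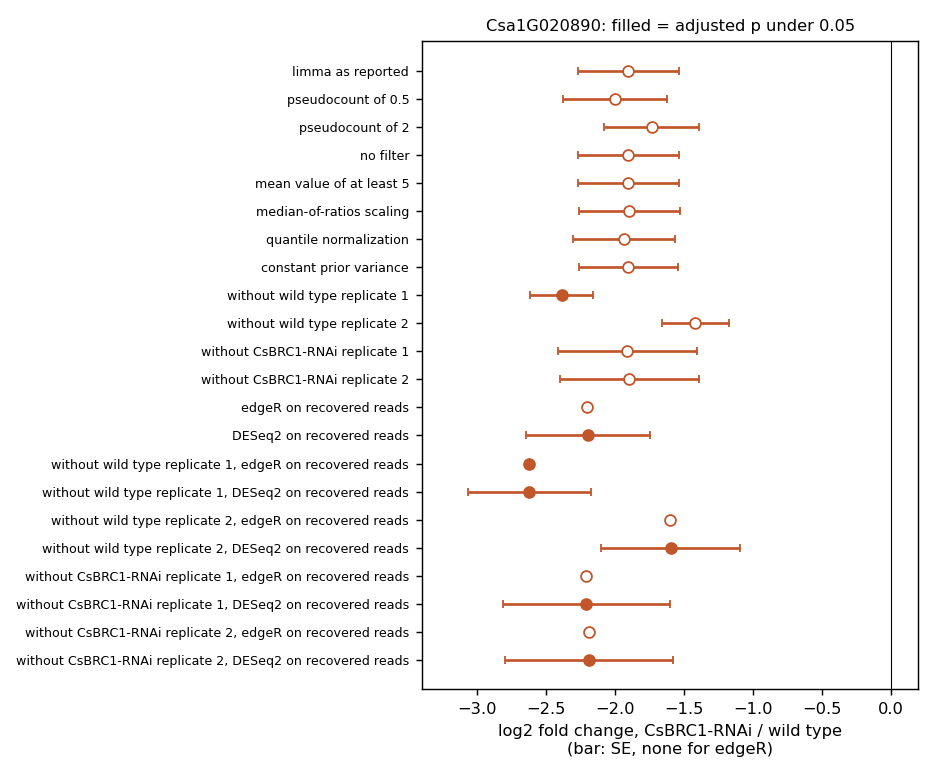
Log2 fold change of Csa1G020890 (CsBRC1-RNAi against wild type) under each tool, filter, scaling and left-out library, with SE bars where the tool gives one. Filled points have an adjusted p under 0.05. All points lie below 0, between -2.62 and -1.42. The groups did not overlap, so a left-out library could not move a limma point above 0.

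Few genes stood as far below wild type as Csa1G020890 did. The median gene had a log2 fold change of -0.01, and 183 genes, or 1.03% with Csa1G020890 itself included, had a fold change at least as low. Of these 183, limma called 99 and did not call 84. A further 151 genes were called lower with a smaller fold change. The SE of Csa1G020890, 0.36, was above the median SE of 0.25 and at or above that of 86% of genes.

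Most of the spread within genotypes lay between the wild-type libraries. They differed 2.02-fold, a gap of 0.97 on the log2(value + 1) scale against a median gap of 0.31 over the genes tested, and 91.9% of genes had a smaller one. The CsBRC1-RNAi libraries differed 1.01-fold, a gap of 0.01 against a median of 0.19, and 4.22% of genes had a smaller one. Wild type 1 was thus nearer than wild type 2 to the silenced libraries in this gene. The same order was found in 69.9% of the 5975 genes in which both wild-type libraries were above both CsBRC1-RNAi libraries. In 73.4% of the 5911 genes in which both were below, wild type 1 was above wild type 2, again nearer to the silenced libraries. Over all genes tested, wild type 1 was below wild type 2 in 48.9%. What sets the wild-type libraries apart was not tested.

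**Figure D4:**
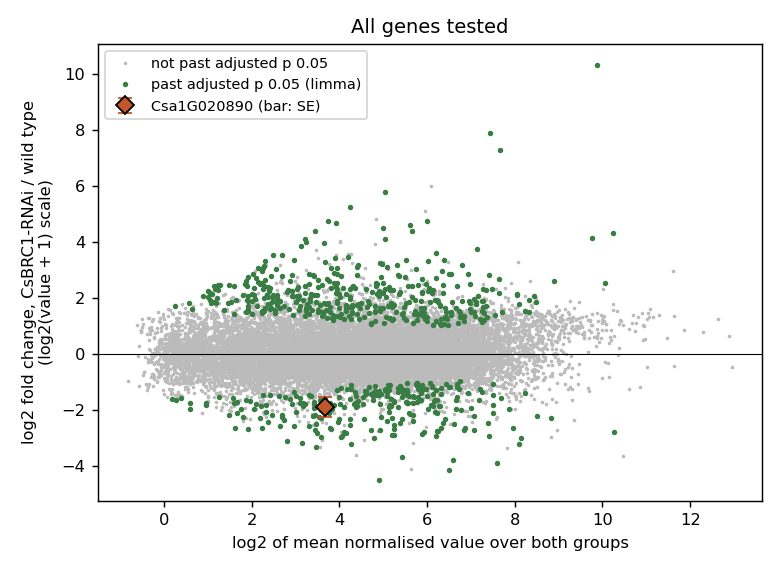
Log2 fold change (log2(value + 1) scale) against the log2 of the mean normalised value for all 17726 genes tested. Green points are past an adjusted p of 0.05 by limma, grey points are not, and the diamond is Csa1G020890 with its SE, at -1.90.

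The comparison with genes of like read level gave a similar place. In 6493 other genes the wild-type mean lay within 2-fold of that of Csa1G020890, between 10.5 and 41.9. Their median log2 fold change was -0.02, with quartiles of -0.41 and 0.4, and 64 of them (0.986%) had a fold change at least as low. By limma 177 of these genes (2.73%) were past the threshold, and 83 (1.28%) were past it and lower. Without wild type 2 the count at least as low as Csa1G020890 was 156 of 5707 genes. The window uses the wild-type values that also enter the fold change, so these shares are a description.

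Of the 10 tested identifiers nearest to Csa1G020890 in the running numbers, 0 had a log2 fold change at least as low. Over all genes tested the share was 1.03%, so 0 of 10 does not set these identifiers apart. By the naming convention of these identifiers the numbers follow the order along chromosome 1, which was not checked on an assembly. Among the 5 nearest on each side, log2 fold changes ran from -0.63 to 1.58 with a median of -0.11, and 5 of the 10 were below 0 and 5 above. By limma 0 of the 10 were past the threshold, as were 93 of 2573 (3.61%) on chromosome 1, and 4 of the 10 had an unadjusted p under 0.05, as did 32.5% of all genes. By edgeR 0 of the 10 were called, against 2.38% of all genes, and by DESeq2 3, against 22.1%. The direct neighbours had log2 fold changes of -0.35 and -0.63, with adjusted p-values of 0.25 and 0.118 by limma.

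Reads from the construct itself may enter these values. The 585-bp fragment is part of the CsBRC1 coding sequence, so transcripts of the hairpin would align to the same gene and add to the count in the CsBRC1-RNAi columns. The table has a single value for the whole gene, and the use of strand in the counting is not given in the sources used here, so reads of the construct and of the gene cannot be told apart. Any such reads would place the message of the gene itself below the 117 and 138 reads counted. In bulk buds, fewer cells expressing a gene and less message per cell likewise cannot be told apart.

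Other genes followed nearly the same course over the 4 libraries, and more followed its mirror image. Likeness was measured as the root mean square distance between log2(value + 1) profiles, each centred on the gene's own mean, over the 14843 other genes whose mean value reached 5. Within a distance of 0.25 there were 73 genes alike and 182 whose profile was the reverse. Within 0.5 there were 645 and 1105. The identifiers carry no names, so nothing is said here of what these genes do.

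The nearest profile was that of Csa4G028470, at a distance of 0.0495. It had values of 15 and 30.2 in the wild-type libraries, and of 4.9 and 5.39 in the silenced ones. By limma its log2 fold change was -1.86 ± 0.36 (adjusted p = 0.0566). It lay close to Csa1G020890 in level as well. Its like course, with a like gap between wild type 1 and wild type 2, follows from how it was picked. The next was Csa3G124990, at a distance of 0.0738, with wild-type values of 122 and 231 and silenced values of 44.2 and 39.1. Its log2 fold change was -1.99 ± 0.33 and its adjusted p 0.047 by limma, a call that limma did not make without wild type 2 (adjusted p = 0.0887) or without CsBRC1-RNAi 1 or 2 (0.171 and 0.155). The call was also absent among the genes whose mean reached 5 (0.0507), by edgeR (0.0536) and under a constant prior variance (0.0543).

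The nearest mirror image was Csa6G076810, at a distance of 0.0366 from the reversed profile. It had values of 8.59 and 3.97 in the wild-type libraries, and of 23.2 and 24.2 in the silenced ones. By limma its log2 fold change was 1.84 ± 0.36 (adjusted p = 0.0562). By the way the gene was picked, wild type 2 was the extreme library here too, at the low end. Csa3G824220 lay at a distance of 0.0368, with wild-type values of 39.7 and 21.2 and silenced values of 114 and 115. Its log2 fold change was 1.94 ± 0.31 and its adjusted p 0.0462 by limma, a call not made by limma without wild type 2 (0.0867) or without CsBRC1-RNAi 1 or 2 (0.181 and 0.143). The call was also absent by edgeR (0.0554) and by limma under a constant prior variance (0.0532). These 4 genes were picked by their values in the same libraries. The order and gap of their wild-type libraries follow from that choice, and their tests add nothing to that of Csa1G020890.

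**Figure D5:**
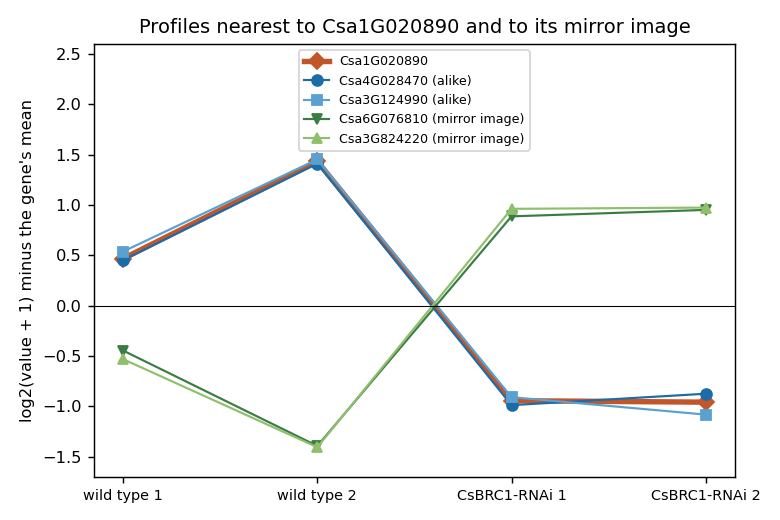
Log2(value + 1) minus the gene's own mean in each library, for Csa1G020890 (diamonds), the 2 genes nearest in profile and the 2 nearest to its mirror image. Lines join points of 1 gene and carry no order. The profiles nearest to Csa1G020890 lie on it within a distance of 0.0495 and 0.0738.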

How the data were processed

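RNA-seq libraries of 2 wild-type and 2 CsBRC1-RNAi bud samples were analysed. HISAT and HTSeq were used, per the submitters' processing notes, with versions, build, annotation and use of strand not given in the sources used here. Each library has 1 column. The authors deposited 1 normalised signal value per gene and library. All values (100%, within 1e-06) were whole multiples of each column's smallest value above 0, which gave the recovered reads, and the implied library sizes equalled those of edgeR's TMM scaling. Columns came from this series alone (0 outside it), and groups from the titles.

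Genotypes were compared on log2(value + 1) by limma 3.58.1 (R 4.3.3; trended prior variance). Genes had to reach a value of 1 in 2 libraries or more, which kept 17726 and removed 44. P-values were adjusted over all genes by Benjamini and Hochberg's method. edgeR 4.0.16 (which called 422 genes) and DESeq2 1.42.0 ran on recovered reads as alternatives, with other pseudocounts, filters, scalings, a prior, a block and left-out libraries. SciPy 1.17.1 gave exact tests and intervals. The main limma fit and the edgeR fit of all libraries were tested on simulated data. DESeq2 and the other alternatives were not.

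Of other genes, the 2 nearest in profile and the 2 nearest to its reverse were named, where the mean value reached 5. The gene and all lists were chosen with earlier results of these data known. No identifier matched RefSeq (0 of 17770), so sequence, length, TCP or auxin carrier genes and marker lists were not used here.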

Additional observations from a re-analysis of the deposited data

How the results depend on the processing

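The log2 fold change of Csa1G020890 was negative in all 14 alternatives and in 8 further ones chosen after seeing the data (edgeR and DESeq2 with a library left out). Both silenced values lay below both wild-type values, so in limma a left-out library or another pseudocount could not turn this sign. The filters, the replicate block and the prior leave the fold change itself unchanged. With any library left out the log2 fold change of Csa1G020890 ran from -2.62 to -1.42, and the level remaining ran from 16.3% to 32.9%. Of the 14, 3 were past the threshold: DESeq2 (-2.20), limma without wild type replicate 1, and limma with the replicate number as a block (-1.90, adjusted p = 0.0259). Nothing shows that equal replicate numbers mark paired libraries: the correlation across genes of the replicate differences in the 2 genotypes was 0.0376. By limma alone the lowest was -2.39, without wild type replicate 1. DESeq2 called the gene whichever library was left out (-2.62 and -1.59 with wild type replicate 1 or 2 left out, -2.21 and -2.19 with CsBRC1-RNAi replicate 1 or 2 left out), and edgeR called it only without wild type replicate 1 (adjusted p = 0.0306). The 640 genes called became 416 where the mean had to reach 5, 1561 with the replicate block, 422 with edgeR, 3917 with DESeq2 and 0 to 4383 with a library left out. The 0 came without wild type replicate 2, by limma (4571 at an unadjusted p under 0.05) and by edgeR (4550), where DESeq2 called 1896. Without wild type replicate 1 limma called 3531, edgeR 3402 and DESeq2 4383. Without CsBRC1-RNAi replicates 1 and 2 limma called 63 and 3, edgeR 99 and 24 and DESeq2 911 and 1272. The cause of these shifts was not tested. The named genes kept their direction in all alternatives. With Pearson's correlation in place of distance, 0 of the 2 nearest profiles and 0 of the 2 mirror images were the same genes. With a pseudocount of 2, 1 of the 2 nearest profiles and 1 of the 2 mirror images were kept, and with 0.5, 2 and 1. Of genes whose mean reached 5, 3.35% and 1.99% lay below Csa1G020890 in CsBRC1-RNAi, shares the filter itself lowers. Silenced reads (117 and 138) set counting error.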
